A study of Triticum aestivum with 78 samples.

Results

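Line A81 is a hexaploid wheat line, 1 of 39 studied from the RL4452 x AC Domain mapping population. It was represented by 2 of the 78 arrays in the series, 1 for each biological replicate. The line was chosen with earlier results of these data known, and its 2 arrays were taken by their label. They were set against 66 arrays of 33 other lines, each with 2 replicates. The lines H8, H9, G30, G13 and B33 (10 arrays) were left out of the comparison. All arrays measured poly(A) RNA of developing seed taken from field plots 5 days after anthesis, and no line had received a treatment. A81 therefore differed from the other lines by genotype only as far as the labels tell. Each array sampled 1 tube of seed, and the labels do not say whether the tubes of a line came from separate plots, so p-values measure the spread between these samples. Levels are log2 of the deposited RMA intensities, and a difference of 1 log2 unit is a doubling of intensity.

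At this stage the wheat grain consists mainly of a green pericarp around a young endosperm. The endosperm later fills with starch and storage protein. Starch is built from ADP-glucose, and its unbranched part, amylose, is made by the granule-bound starch synthase GBSS, the product of the waxy genes. The young grain also holds fructans, polymers of fructose that are broken down by fructan exohydrolases, and it later accumulates inhibitors of insect and microbial enzymes together with thionins, small antimicrobial proteins. In a mapping population each line carries its own mixture of the alleles of both parents, so 1 parental allele is shared by many lines.

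GBSS is the gene for which A81 was known from earlier results on these arrays. Its single named probe set (Ta.2795.1.S1_a_at, LOC543395) had 11.10 log2 units on A81 replicate 1 and 11.59 on replicate 2. The 66 arrays of the other lines ran from 7.18 to 11.38 with a median of 9.43. A81 replicate 2 lay above all of these arrays, whereas 4 of them lay above A81 replicate 1, so the groups overlapped. A81 exceeded the mean of the other lines by 1.96 ± 0.37 log2 units (SE, 2 arrays against 66), a 3.89-fold higher intensity with adjusted p = 0.000981 in limma. Since its high level in A81 was known, this p is no independent evidence. The copies of GBSS in the wheat subgenomes could not be told apart with 1 probe set.

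Ordered by mean level, A81 came first of 34 lines with 11.35 ± 0.34 (SD, n = 2), followed by A40 with 11.29 and then DH95. A difference between 2 line means had an SE of 0.51 for GBSS and needed 1.04 log2 units to pass an unadjusted 95% interval. The means of 10 other lines lay within that distance, so A81 did not stand apart from its neighbours in this order. The call was lost with scan day in the model (difference 1.54, adjusted p = 0.134), without A81 replicate 2 (1.70, adjusted p = 0.107), and when the other lines' own spread was taken as the error (adjusted p = 1). On its own scan day, A81 replicate 1 lay 1.39 above the mean of 3 arrays of other lines, and replicate 2 lay 2.00 above the mean of 7, with 0 of these arrays above A81 in either case. These are the same A81 values known to be high, so the within-day differences are no independent evidence.

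**Figure D1:**
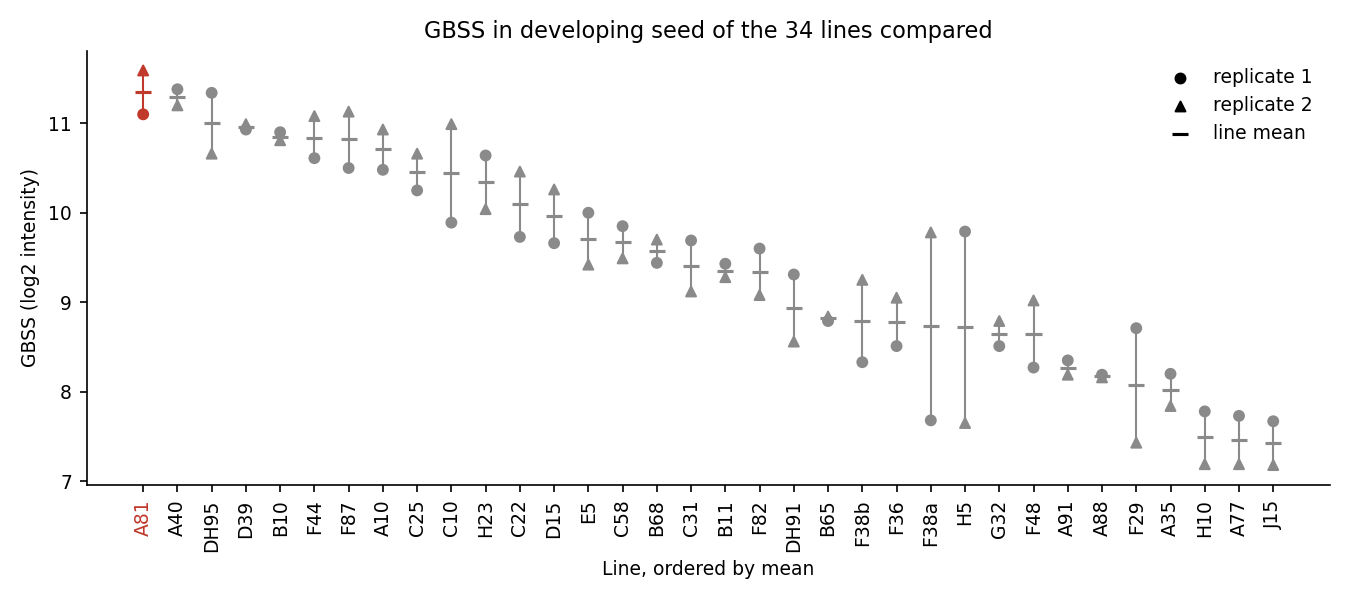
Log2 intensity of GBSS (vertical axis) in each of the 34 lines compared, ordered by line mean (horizontal axis). Circles are replicate 1, triangles replicate 2 and dashes the mean; A81 (red) has the highest mean at 11.35, and A40 follows at 11.29.

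Across the array, 1170 of 61115 probe sets (1.91%) passed an adjusted p of 0.05 in limma for A81 against the mean of the other lines. Of these, 757 (1.24%) were higher and 413 (0.676%) were lower in A81. All 1170 kept their direction on both A81 arrays, each taken against the other lines' arrays of the same replicate number. Of all probe sets 52.6% had both arrays on 1 side. The calls were made on these same 2 arrays, so their agreement was largely fixed by the call and is no independent evidence. The median size was 1.9-fold for the higher and 1.94-fold for the lower probe sets, and the largest were 27.2-fold and 24.9-fold. At least 2-fold differences were seen for 346 higher and 192 lower probe sets, and at least 4-fold ones for 85 and 40. By the number of calls A81 came after 3 of the 34 lines, A35 with 2945, F36 with 1730 and DH91 with 1560. The 34 lines had a median of 535 calls.

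**Figure D2:**
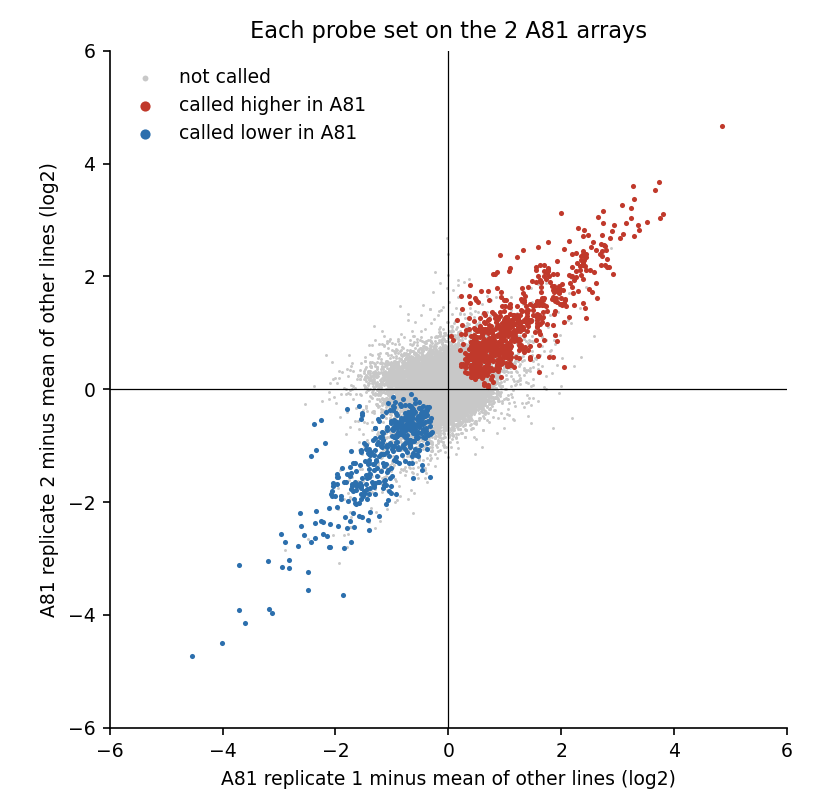
Each point is 1 of 61115 probe sets, placed by its difference (log2) from the mean of the other lines on A81 replicate 1 (horizontal) and on A81 replicate 2 (vertical). The 757 probe sets called higher (red) lie in the upper right and the 413 called lower (blue) in the lower left, so each keeps its direction on both arrays.

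The number of calls depended on the 2 A81 arrays and on the error used. Without A81 replicate 1 there were 304 calls, of which 280 were among the 1170, and without replicate 2 there were 632, of which 389 were. With scan day in the model there were 494 calls (0.808%), 468 of them shared. Within the scan day of A81 replicate 1, which held 3 arrays of other lines, all 757 higher probe sets and 407 of the 413 lower ones kept their direction. Within that of replicate 2, with 7 other arrays, all 1170 did. The calls rest on the same A81 values, so these within-day counts are no independent evidence. The tests ask whether A81 differed from the mean line by more than replicate arrays of a line differ from each other. They do not ask whether it lay outside the range of the lines. With the spread between lines as the error, limma called 13 probe sets (0.0213%), all higher.

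Most of the called levels were shared with other lines. An other line was counted on the A81 side of a probe set when its mean lay beyond the midpoint between A81 and the mean of the other lines. The median was 6 of 33 other lines for the higher probe sets and 8 for the lower ones. No other line was on the A81 side for 32 higher and 9 lower probe sets. From 1 to 5 other lines were there for 317 higher and 160 lower, 6 to 10 for 232 and 80, and more than 10 for 176 and 164. A81 had the highest mean of the 34 lines in 349 of the 757 higher probe sets and the lowest in 163 of the 413 lower ones; over all probe sets it was highest in 2.98% and lowest in 2.64%. Both A81 arrays lay above every other array for 75 higher probe sets and below every other array for 18 lower ones. Over all probe sets 0.139% and 0.0475% did so. The called probe sets were selected on the same A81 values, which raises both kinds of count among them, and no test was made.

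**Figure D3:**
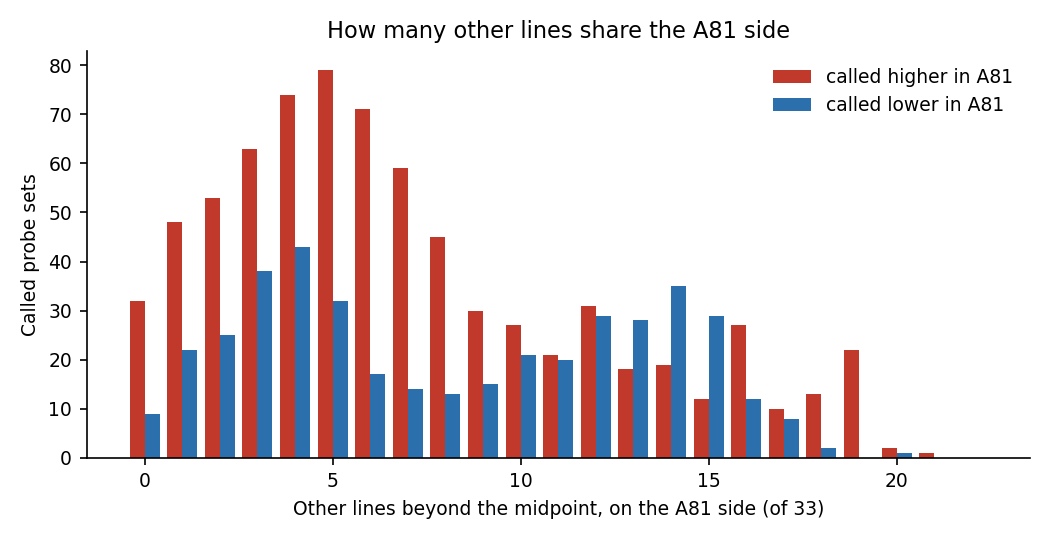
Number of called probe sets (vertical axis) by how many of the 33 other lines have a mean on the A81 side of the midpoint (horizontal axis), for probe sets higher (red) and lower (blue) in A81. A total of 32 higher and 9 lower probe sets have no other line on that side, and the counts extend to 21 lines.

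The lines that most often shared the A81 side were A35, for 53.2% of the 1170 probe sets, H10 for 45.0%, DH91 for 44.3% and E5 for 40.1%. The line D15 did so for 5.2% and F36 for 7.9%. A35 and DH91 shared the higher probe sets more often (62.5% and 51.1%) than the lower ones (36.3% and 31.7%), and D39 shared 50.5% of the higher and 15.0% of the lower. These shares describe means that all enter the same comparison and carry no test. They were not counted over all probe sets, so they cannot show a likeness particular to A81. Set directly against A35, A81 differed in 547 probe sets (0.895%), 224 higher (0.367%) and 323 lower (0.529%). Set against DH91, it differed in 501 (0.82%), 217 higher (0.355%) and 284 lower (0.465%). Both contrasts use the same A81 arrays as the main comparison. Of the 1170 probe sets, 279 also differed from A35 and 283 from DH91 in the same direction. The A35 count was 321 without A81 replicate 1, 353 and 363 without A35 replicate 1 or 2, and 218 with scan day. The DH91 count was 302 without A81 replicate 1, 248 and 862 without DH91 replicate 1 or 2, and 286 with scan day.

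In GBSS A81 lay above both of these lines, a comparison that uses the same A81 values known to be high, so its p-values are no independent evidence. A35 had a mean of 8.02 and DH91 one of 8.94. A81 lay 3.33 log2 units above A35 (95% interval 2.29 to 4.36, adjusted p = 5.23e-05 in limma) and 2.41 above DH91 (1.37 to 3.45, adjusted p = 0.00673).

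The other named gene that passed the test was 6-FEH, a fructan 6-exohydrolase (Ta.30950.1.A1_x_at). It had 7.69 and 7.80 on the A81 arrays, whereas the arrays of the other lines ran from 6.34 to 10.69 with a median of 9.09. Both A81 values lay in the lower part of this range, within it. The difference was -1.25 ± 0.33 (SE), a 2.37-fold lower intensity with adjusted p = 0.0357 in limma. A81 ranked 30th of 34, and 9 other lines were on its side, A35 and DH91 among them. A81 and A35 differed by -0.10 in 6-FEH (interval -1.03 to 0.84), and A81 and DH91 by -0.21 (-1.14 to 0.73). The call was lost without A81 replicate 1 (adjusted p = 0.773), without replicate 2 (0.138) and with scan day (0.214). It was also lost with all 39 lines (0.145), without the replicate block (0.0694), with array weights (0.0794) and against the spread between lines (1). Both A81 arrays lay below every other array of their own scan day. The call of 6-FEH rests on the same A81 values, so this is no independent evidence. The other probe sets of 6-FEH (Ta.9641.1.A1_a_at and TaAffx.93410.1.S1_at) differed by -0.19 and -0.27, with adjusted p of 0.926 and 0.788.

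These 2 were the only calls among the 15 probe sets of the starch and sugar list (13.3%, against 1.91% of all probe sets), which was chosen with GBSS known. The median difference of the list was -0.10, where the median of all probe sets was 0.00. No probe set of the enzyme that makes ADP-glucose passed the test. AGP-S, the small subunit of ADP-glucose pyrophosphorylase (Ta.242.1.S1_at), had a median of 10.98 on the other arrays and differed by -0.03 ± 0.14 in A81. For AGA.1 (Ta.23665.1.S1_at), annotated to the same enzyme, the difference was -0.39 ± 0.19 with adjusted p = 0.467 and rank 31 of 34, and its second probe set (Ta.23665.1.A1_at) went the other way, at 0.19 ± 0.12 (0.641). BMY1, a beta-amylase (Ta.3.1.S1_at), differed by -0.23 ± 0.10 (adjusted p = 0.331), and the fructan 1-exohydrolase 1-FEH (Ta.199.1.S1_at) by -0.10 ± 0.20 (0.951). The starch and sugar list as a mean of its 12 members at the median level stood at -0.06 and -0.03 on the A81 arrays, within the other arrays' range of -0.54 to 0.44.

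Only 200 of the 61115 probe sets had a gene name other than a locus number, and GBSS and 6-FEH were the 2 called among them. This was 1% of them, where 1.91% of all probe sets were called. In the 12 gene lists other than starch and sugar, limma called 0 of 151 probe sets. At an unadjusted p under 0.05 there were 13 of these (8.61%), compared with 6255 (10.2%) of all probe sets.

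**Figure D4:**
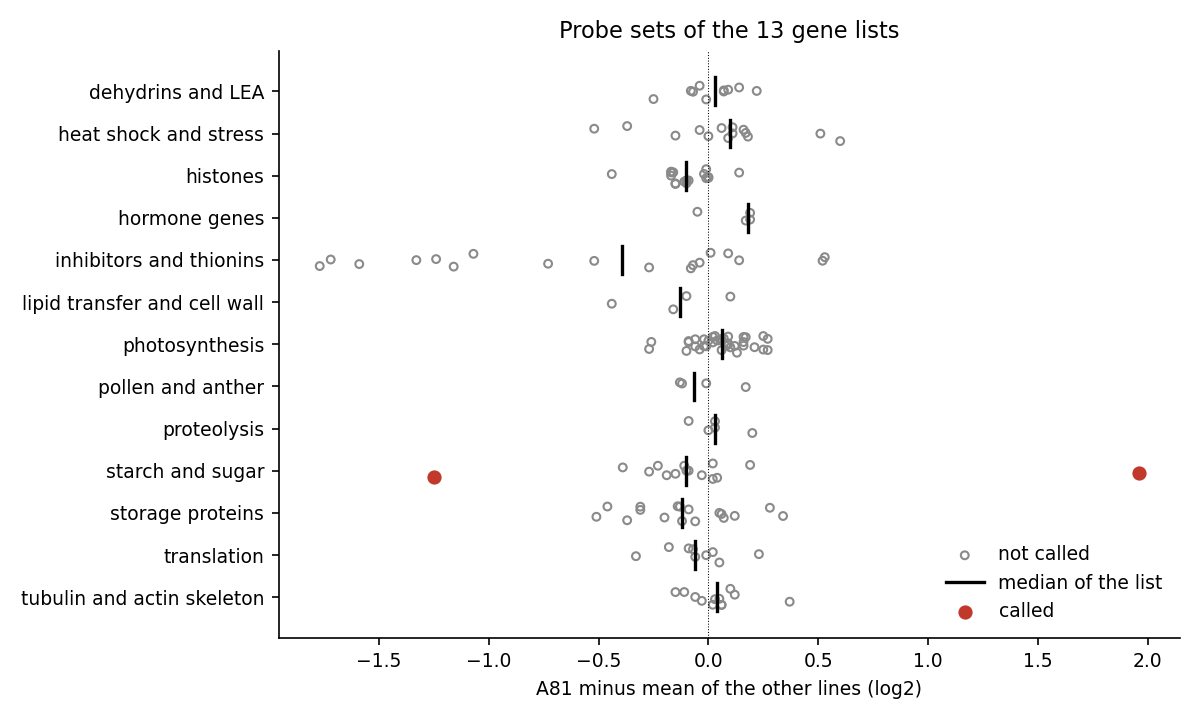
Difference between A81 and the mean of the other lines (log2, horizontal axis) for every probe set of 13 gene lists (rows). Filled red points passed the test (GBSS at 1.96 and 6-FEH at -1.25), open points did not, and black bars are list medians, of which the inhibitors and thionins have the lowest at -0.39.

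The inhibitors and thionins had the widest differences of the lists without a call. Of 18 probe sets 13 lay below the mean of the other lines, with a list median of -0.39. The median was -1.20 for the 10 that reached the median level of all probe sets in A81 or in the other lines. Some of the 10 reached it only through the other lines, among them Ta.23967.1.S1_s_at, with an A81 mean of 4.93. That selection pulls the -1.20 and the mean of the 10 members towards lower levels in A81. The purothionin THI1.1 (Ta.23967.1.S1_s_at) had 5.20 and 4.66 in A81 against 4.43 to 11.66 elsewhere (median 6.27), a difference of -1.77 ± 0.89 with adjusted p = 0.499. The alpha-amylase and trypsin inhibitor ATI (Ta.58.1.S1_at) had 5.54 and 4.98 against 5.15 to 11.80 (median 6.42), a difference of -1.72 ± 0.80 with adjusted p = 0.431. In both, A81 sat at the low end of a wide range, with 11 other lines on its side for THI1.1 and 12 for ATI. The lowest adjusted p of the list was 0.32, for THI1.2 (Ta.91.1.S1_at, -1.07 ± 0.44). XIP-1, a xylanase inhibitor, went the other way, with 10.76 and 10.55 on Ta.1200.1.S1_at, the highest mean of the 34 lines, but a difference of 0.52 ± 0.24 that did not pass (adjusted p = 0.428). The mean of the 10 members was -0.70 and -1.07 on the A81 arrays, where the other arrays ran from -1.08 to 3.67 with a median of -0.43.

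Storage protein transcripts were mostly dim at this stage. Of 17 probe sets 4 reached the median level, 5.07 log2 units, in A81 or in the other lines, and the list median was -0.12. The avenin-like protein ALP (Ta.27777.1.S1_at) had 9.83 and 10.08, the lowest mean of the 34 lines, with a difference of -0.37 ± 0.16 and adjusted p = 0.354. For the low molecular weight glutenin LMW (Ta.160.2.S1_x_at), A81 had 6.96 and 6.27, a difference of 0.28 ± 0.18 (0.673).

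Markers of other seed tissues and of dividing cells differed little. The photosynthesis list, which marks green pericarp, had 25 of 36 probe sets above the other lines' mean, with a median of 0.06. Only 11 of the 36 reached the median level, and their median difference was 0.06 as well. The list members PsbP of photosystem II (TaAffx.120874.1.S1_x_at) and rbcl, the large subunit of Rubisco (TaAffx.128414.181.S1_at), differed by 0.27 ± 0.31 and 0.17 ± 0.16. Of 18 histone probe sets 16 lay below the other lines' mean, with a median of -0.10. The histone H2A genes wcH2A-2 (Ta.29542.1.S1_x_at) and wcH2A-9 (Ta.27657.14.S1_x_at) differed by -0.44 ± 0.31 and -0.17 ± 0.12. The anther and pollen list, made up of 2 tapetum genes of the raftin family, had 4 probe sets between -0.13 and 0.17, of which 1 for raftin1b (Ta.4091.1.S1_x_at, 5.42 and 5.68 in A81) reached the median level. In bulk seed, fewer cells of a type and less RNA per cell cannot be told apart.

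Among stress genes, the zinc finger gene WZF1 (Ta.103.1.S1_at) had 8.78 and 6.70 on the A81 arrays, on either side of the other lines' median of 7.11, and its difference of 0.60 ± 0.76 turned to -0.17 with scan day. The glutathione transferase GSTZ1 (Ta.237.1.S1_a_at) differed by -0.37 ± 0.18 (adjusted p = 0.471). In the translation list, eIF-2-beta, a subunit of an initiation factor (Ta.165.1.S1_at), had the lowest mean of the 34 lines with 10.19 and 10.33, a difference of -0.33 ± 0.12 that did not pass (0.227), and the ribosomal protein gene RPL9 (Ta.14183.1.S1_at) differed by 0.23 ± 0.12. The cell wall enzyme XTH (Ta.30703.1.S1_at) differed by -0.44 ± 0.22 and the lipid transfer protein LTP3 (Ta.1282.1.S1_x_at) by -0.16 ± 0.15. Differences in the tubulin list went both ways, at 0.37 ± 0.33 for Ta.723.1.S1_at and -0.15 ± 0.06 for Ta.812.1.S1_x_at, both of TUBA, an alpha-tubulin. UBC1, a ubiquitin-conjugating enzyme, had 0.20 ± 0.14 on TaAffx.51048.1.S1_at and -0.09 ± 0.19 on TaAffx.53697.1.S1_x_at. The gibberellin 20-oxidase GA20ox1d had 0.19 ± 0.13 on Ta.141.1.S1_at and 0.19 ± 0.17 on Ta.141.1.S1_x_at, and the latter turned to -0.05 with scan day. For the dehydrin Rab15 (Ta.2704.1.S1_at) and the late embryogenesis protein Em (Ta.25025.1.S1_s_at) the differences were 0.22 ± 0.21 and 0.09 ± 0.11.

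Most of the calls fell on probe sets with no annotated gene, as most of the array has none. Of the 1170 calls 27 had a gene symbol, and of all 61115 probe sets 1273 did, a similar share. Probe sets without a symbol are given here by their identifiers. The highest difference of all was that of Ta.23271.1.S1_s_at, with 9.06 and 8.65 in A81 and 2.81 to 7.70 elsewhere (median 3.37). Both A81 arrays lay above every other array. A81 exceeded the mean of the other lines by 4.77 ± 0.41 (27.2-fold, adjusted p = 6.13e-10 in limma). That mean, 4.09, was under the median level, so the probe set reached that level through A81 and the fold holds for intensities only. DH91, A35, C58 and D39 were on its side, with means between 6.66 and 7.60. Its next line, DH91, was 1.25 below A81 (interval 0.10 to 2.41, adjusted p = 0.487), so the step from A81 to DH91 did not pass.

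Other large differences followed a division of the lines into a high and a low class, with A81 inside 1 of them. Ta.4547.1.A1_at had 10.31 and 10.30 in A81 and a median of 4.63 elsewhere, with the highest other array at 10.73, and 12 other lines were on the A81 side (difference 3.71 ± 0.43). TaAffx.113846.1.S1_s_at had 11.55 and 11.51 in A81, and 17 other lines were with it (3.59 ± 0.52); this call was lost with all 39 lines (adjusted p = 0.217). In both probe sets A35 and DH91 were in the low class, at 4.55 and 4.46 for the first and at 4.22 and 3.71 for the second. For Ta.30798.1.A1_at (8.87 and 7.90, median elsewhere 4.05), 8 other lines were on the A81 side. DH91 was among them at 8.40 but not A35 at 3.80. Its mean in the other lines, 4.99, was under the median level, so it reached that level through A81. Among the 757 higher calls there were 91 such probe sets.

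The probe sets named Ta.10549 and Ta.20001 had more graded levels. Ta.10549.1.A1_at had 9.00 and 8.33 in A81 against 3.27 to 8.79 (median 4.69), with A35, D39, E5, DH95 and H10 on the A81 side and a difference of 3.45 ± 0.54. Ta.10549.2.A1_at, with 8.15 and 7.64, lay above all other arrays (highest 6.91), with A35 and D39 on its side. Ta.20001.1.A1_at had 10.12 and 10.16, and 13 other lines were on the A81 side, A35 above A81 at 10.43. Its call was lost with scan day (adjusted p = 0.075) and without A81 replicate 1 or 2 (0.105 and 0.0977).

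On the lower side, Ta.9188.2.S1_at had 3.74 and 3.06 in A81, where the other arrays had a median of 7.99, and the difference was -3.87 ± 0.30 (adjusted p = 6.53e-11). The lines A35, A91, A88, B10, A10 and A40 were also on the low side, A35 at 3.26. TaAffx.119549.1.S1_at had 5.17 and 4.75 against a median of 9.07 (-3.81 ± 0.45), with E5, F48, B10 and F44 on the A81 side. TaAffx.29938.1.S1_at had 5.09 and 4.30 against 9.73 (-3.55 ± 0.43), with 9 other lines. Ta.28744.1.S1_at had 5.18 and 4.55 against 10.74 (-3.54 ± 0.72), with 14 other lines.

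The probe sets Ta.10945.2.A1_a_at and Ta.10945.2.A1_x_at had the largest lower differences in A81, -4.64 ± 0.86 and -4.26 ± 0.87, with 10 other lines on the A81 side for each. Ta.10945.2.A1_a_at had 2.92 and 2.85 in A81 and a median of 9.75 elsewhere. All 3 other arrays of the scan day of A81 replicate 1 were also low, at 2.93 to 3.00, so that within that day the difference was -0.04. For Ta.10945.2.A1_x_at the direction turned within that day, to 0.36, with A81 at 3.44 and the 3 other arrays at 3.02 to 3.12. Both probe sets, and Ta.28744.1.S1_at, lost their calls with scan day (adjusted p of 0.117, 0.204 and 0.0965). The same 3 lost them without A81 replicate 1 (0.0754, 0.115 and 0.0798) and without replicate 2 (0.0583, 0.112 and 0.129), and Ta.28744.1.S1_at with all 39 lines (0.084). Where a level lies under the median level, as for these low classes, the fold holds for intensities only.

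The 13 probe sets called against the spread between lines were picked with their values in view. They had no other line on the A81 side, and for 11 of them both A81 arrays lay above all other arrays. Ta.10125.2.S1_at had 10.16 and 10.03 against 8.66 to 9.54 (median 9.17), a difference of 0.94 ± 0.10 or 1.92-fold. Ta.18920.1.S1_at had 10.73 and 10.47 against 8.86 to 9.98 (median 9.50), a difference of 1.09 ± 0.12 or 2.13-fold. These 2 were bright in every line, and the gap from A81 to the next line mean was 0.74 and 0.78. With the spread between lines, their adjusted p was 0.00127 and 0.0123 in limma.

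The other 11 were dim in the other lines. Ta.97.1.S1_at and Ta.97.2.S1_x_at had 6.25 and 5.88, and 6.98 and 5.96, in A81, above other arrays that reached 5.24 and 5.43. Ta.11087.2.S1_at had 5.69 and 4.88 against at most 4.23, and Ta.23324.1.S1_at had 5.67 and 5.56 against at most 4.77. Ta.3133.1.S1_x_at had 5.15 and 4.70, with every other array between 2.85 and 3.93, and the smallest adjusted p against the spread between lines, 5.49e-08. Ta.22732.1.S1_s_at and Ta.22732.1.S1_x_at had 3.94 and 4.94, and 4.79 and 4.94, all under the median level of 5.07. TaAffx.80306.1.S1_at had 5.76 and 5.71 against at most 5.63, and Ta.8228.1.S1_at, whose symbol is LOC543097, had 5.67 and 5.04 against at most 4.93. For TaAffx.111585.1.S1_at and TaAffx.83367.1.S1_at 1 of the A81 arrays lay inside the range of the other lines. Ta.8228.1.S1_at, TaAffx.111585.1.S1_at, TaAffx.80306.1.S1_at and TaAffx.83367.1.S1_at lost the call against replicate spread without 1 of the A81 arrays (highest adjusted p 0.274, 0.444, 0.0763 and 0.739), and TaAffx.83367.1.S1_at also lost it with scan day (0.342).

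**Figure D5:**
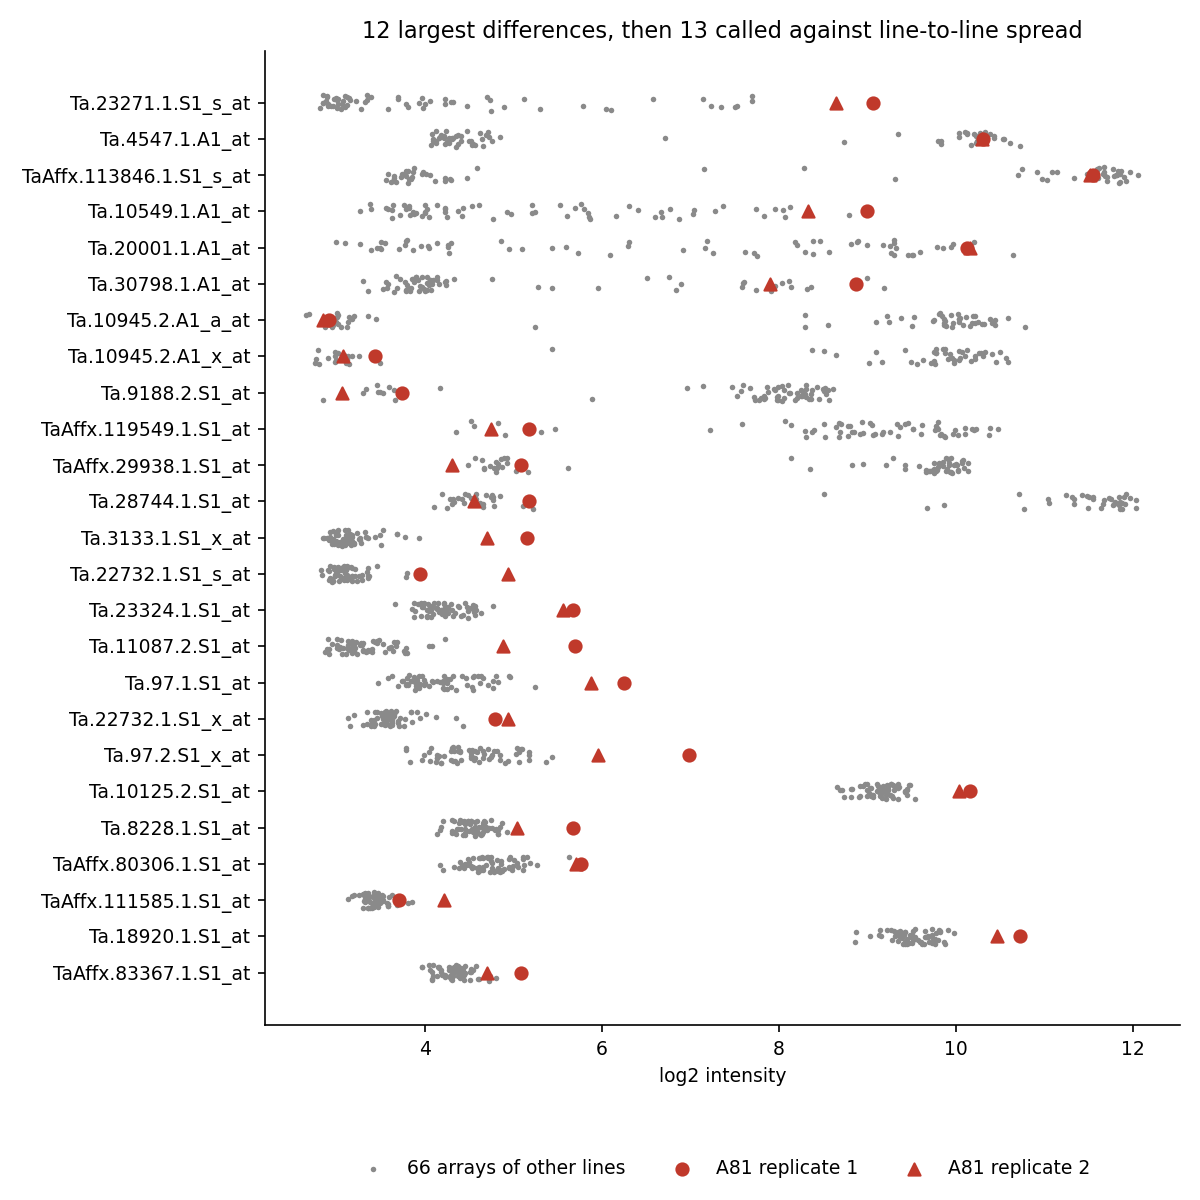
Log2 intensity (horizontal axis) on A81 replicate 1 (red circle), A81 replicate 2 (red triangle) and each of 66 arrays of other lines (grey) for 25 probe sets (rows). Among the upper 12 A81 can fall within a class of other lines, as for Ta.4547.1.A1_at. In 11 of the lower 13, as for Ta.3133.1.S1_x_at, all other arrays lie below both A81 arrays, and in 2 the ranges overlap.

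Some probe sets whose names share a stem were called together, and these are not independent of each other. The 1170 probe sets had 1008 stems, 126 stems had 2 or more called members, and in 124 of these all called members had the same direction. For Ta.9332, 4 probe sets were higher by 2.33 to 3.22, for example Ta.9332.2.A1_at with 10.63 and 10.11 (difference 3.13 ± 0.50) and Ta.9332.3.S1_x_at with 7.97 and 7.44 (2.33 ± 0.40). In each of these 4 A81 had the highest mean of the lines, with 6 to 8 other lines on its side, and A35 followed at 7.33 to 10.12. For Ta.2278, 5 probe sets were higher by 1.73 to 2.11, among them Ta.2278.2.S1_at (2.11 ± 0.37) and Ta.2278.1.S1_x_at (1.73 ± 0.26), with 2 to 4 other lines on the A81 side.

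A further 25 called probe sets, of 1073 (2.33%, near the 1.91% of all probe sets), carried a locus number without a name, 14 higher and 11 lower, and the examples were picked with their values in view. Ta.192.1.S1_at (LOC543235) had 9.36 and 9.00 in A81, above all other arrays (4.42 to 8.21, median 6.21), with a difference of 2.87 ± 0.42. A35 alone was on its side, at 8.12, and the step of 1.06 between the 2 lines did not pass (interval -0.13 to 2.25). Ta.221.1.S1_at (LOC543492) and Ta.224.1.S1_at (LOC542839) were higher by 2.33 ± 0.33 and 2.35 ± 0.42, with A35 at 9.07 and 9.10, next to A81 means that differed from it by 0.42 and -0.03. Ta.10084.1.S1_at (LOC542838) had 11.46 and 11.47, above all other arrays, with a difference of 1.68 ± 0.26. On the A81 side were 5 other lines, D39 nearest at 10.99.

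Ta.5567.1.S1_at (LOC543137) was the locus with the clearest lower level. It had 7.27 and 7.03 in A81, and the other arrays ran from 7.91 to 10.05 (median 8.76), so both A81 arrays lay below all of them and no other line was on their side. The difference was -1.66 ± 0.26 (3.17-fold, adjusted p = 9.68e-05 in limma). It held with scan day (-1.72, adjusted p = 0.000507) and without either A81 array (highest adjusted p 0.0238), but not against the spread between lines (0.541). Ta.14528.1.S1_s_at (LOC780626) also lay below all other arrays, with 11.23 and 11.48 against 11.50 to 12.81, a difference of -0.85 ± 0.11. Here, however, 6 other lines were on the A81 side, C10 nearest at 11.59.

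Across the 33 other lines, as a description with no test, the median Pearson correlation of line means between the higher probe sets of A81 and GBSS was -0.02, and it was 0.01 over all probe sets. The same median was -0.40 with 6-FEH, -0.28 with ATI and 0.37 with WZF1, where all probe sets had -0.01, 0.00 and -0.05. For the lower probe sets of A81 it was 0.04, 0.05 and -0.05. ATI and WZF1 were not called in A81. GBSS and 6-FEH had a correlation of -0.04 over these lines.

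The A81 arrays were not unusual as arrays. Their median intensities were 33.1 and 33.8, within 32.1 to 34.2 for the other lines, and their array weights were both 0.855, within 0.473 to 2.17. With 2 arrays per line the design gives both arrays of a line the same weight. The weights therefore cannot tell 1 A81 array from the other. Signal differences between 3' and 5' probe sets of 4 control transcripts lay within the range of the other arrays. Over probe sets above the median level, each less its mean over all arrays, the A81 arrays correlated at 0.30 with each other; the nearest array to replicate 1 was A88 replicate 1 (0.48) and the nearest to replicate 2 was A35 replicate 2 (0.45). Of the 68 arrays 24 were nearest to the other array of their own line. The part of these features in the A81 differences was not tested.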

How the data were processed

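The authors deposited intensities made with RMA, which corrects background, normalizes the arrays to 1 distribution and summarizes each probe set, per the submitters' processing notes. They ran from 5.04 to 27696, so log2 was taken of the deposited intensities with no constant added. The probe-level data were not used here. Leaving out 111 control and 64 reporter sets, 61115 of 61290 probe sets were tested. The array annotation gave 1273 of them 1 symbol, 0 several and 59842 none, and 1272 matched the Chinese Spring RefSeq v2.1 assembly, used for names only. A total of 200 probe sets of 102 genes had a name other than a locus number.

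All 34 lines (68 arrays) entered 1 fit with line as factor and replicate number as block (lmFit and eBayes, limma 3.58.1, R 4.3.3), with Benjamini-Hochberg adjustment over 61115 probe sets and calls at adjusted p below 0.05. Tables and figures used Python 3.11.15, pandas 2.3.3, numpy 2.4.6 and matplotlib 3.10.9. The fit was also run on simulated data with independent noise, no differences among the other lines and no effect of scan day. That run cannot show how the fit behaves where such differences exist. In the alternatives the error was taken from 1 mean per line (spread between lines), or the block, lines, scaling, weights or arrays changed. With the arrays of 1 replicate number, the error was the spread between the single arrays of the lines. Per the instrument files, 1 scanner read the arrays on 15 scan days, and the replicate numbers match 2 project names entered there. What these names stand for is not stated. Over 561 pairs of lines, the differences between replicate 2 and replicate 1 correlated between -0.57 and 0.69. The median was 0.17, and 334 pairs lay above 0.1. For A81 with the other lines the median was 0.3 and the lowest -0.37. Whether the numbers pair the arrays was not tested. Precision is limited by the number of arrays, 2 for each line.

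The named genes were GBSS; named probe sets that passed (the 15 highest and 15 lowest, of which there were 2 in all); the 6 highest and 6 lowest unnamed ones that passed and reached the median level; and from each of 13 lists the 2 members at that level with the largest difference. The line, its marker and the lists were chosen with earlier results of these data known.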

Additional observations from a re-analysis of the deposited data

How the results depend on the processing

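The number of A81 arrays limits most results, and probes were not analysed for base differences between the parents. No alternative turned the sign of GBSS. Its difference of 1.96 was the same without the replicate block. It lost its call at 1.54 with scan day and at 1.96 with the spread between lines. With replicate 1 or replicate 2 arrays alone it was 1.70 and 2.21. Those fits held 1 A81 array and also took the spread between lines as the error. Leaving out 1 array gave 1.70 to 2.21 (1.93 to 1.99 for arrays of other lines). The 1170 calls became 953 without the replicate block, 507 with all 39 lines (373 higher, 134 lower), 494 with scan day (362 and 132), 13 with the spread between lines (13 and 0), 62 with replicate 1 arrays alone (58 and 4) and 5 with replicate 2 arrays alone (5 and 0), all by limma. Leaving out 1 array gave 304 to 1270 in all, 224 to 800 higher and 80 to 479 lower, with 1118 to 1270 for arrays of other lines. Repeated quantile normalization gave 1255, centring each array on its median 1092, array weights 929, a mean-variance trend 1182, probe sets at the median level 1247 and leaving out F36 1169. Without B68 replicate 2 and D15 replicate 2, an alternative chosen after seeing the data for their wash record, there were 1131.

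The calls against A35 fell from 547 to 218 with scan day and ranged from 321 to 778 over left-out arrays. Those against DH91 fell from 501 to 286 and ranged from 248 to 862. The count of 2 calls in the gene lists became 1 without the replicate block, with all 39 lines and with array weights. It became 0 with scan day or the spread between lines, and stayed at 2 without any 1 array of another line. Without A81 replicate 2 neither GBSS nor 6-FEH remained, and the 1 call was TUBA on Ta.812.1.S1_x_at. Signs turned for members that had not passed. With scan day GA20ox1d (Ta.141.1.S1_x_at) was at -0.05, WZF1 at -0.17 and wcH2A-9 at 0.01. With replicate 2 arrays alone, as without A81 replicate 1, the value is the first of each pair that follows, and without A81 replicate 2 it is the other: GA20ox1d -0.25 and 0.62, WZF1 -0.27 and 1.47, Rab15 -0.02 and 0.46, rbcl (TaAffx.128414.181.S1_at) -0.01 and 0.35, and TUBA -0.05 and 0.80 (Ta.723.1.S1_at) or 0.03 and -0.32 (Ta.812.1.S1_x_at). UBC1 (TaAffx.53697.1.S1_x_at) was at -0.30 and 0.11, the latter also with replicate 1 arrays alone. The cause was not tested.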
